A study of Mus musculus with 16 samples.

Results

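GATA2-rescued progenitors were compared with enhancer-intact progenitors to ask which chromatin differences a GATA2 vector leaves in place and which it adds. The rule took the 4 ATAC-Seq libraries of hi-77-/- cells infected with a GATA2 vector and the 4 libraries of hi-77+/+ cells infected with an empty vector, 8 of the 16 libraries of the series. In each library the 49000 peaks of highest significance on chromosomes 1 to 19 and X were kept. Merging the kept peaks of the 16 libraries wherever they shared 1 bp or more gave 90549 regions, and presence of a peak was recorded library by library. Gained regions were those in which 4 of 4 hi-77-/- GATA2 libraries and 0 of 4 hi-77+/+ empty libraries had a peak, and lost regions the reverse. The rule found 4552 such regions, 2466 gained and 2086 lost.

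The cells were mouse fetal liver hematopoietic progenitors, immortalized by an estrogen-regulated HoxB8 fusion protein and grown with β-estradiol. In hi-77+/+ cells the -77 enhancer of Gata2 was intact, whereas both alleles lacked it in hi-77-/- cells. The retrovirus carried GFP, which was the marker for sorting, and the insert was nothing (empty), HA-tagged mouse Gata2 cDNA (GATA2) or the same cDNA with a 9-residue insertion between the zinc fingers (9aa-Ins). The other two hi-77-/- groups (empty and 9aa-Ins), also of 4 libraries each, took no part in the gained and lost calls, but their peaks entered the merge, and their values are given below beside those of the groups compared. All 4 groups shared the immortalization and a virus infection, and the 2 groups compared differed both in genotype and in the insert. The labels named no separate lines within a genotype, so that the enhancer deletion and a difference between cell lines cannot be told apart. Nothing in the labels says that the 4 libraries of a group came from separate cultures. The study calls the ATAC-Seq libraries of each hi-77-/- group biological replicates, and its ATAC-Seq methods do not list hi-77+/+ empty. The p-values measure the spread between these libraries, which may be technical.

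GATA2 is a zinc finger transcription factor that binds WGATAR motifs, often beside E-boxes bound by basic helix-loop-helix partners and beside RUNX and ETS motifs. In hematopoiesis it maintains stem and progenitor cells and takes part in mast cell and early erythroid programs. The -77 enhancer drives Gata2 transcription in myeloerythroid progenitors. A retroviral promoter does not follow the regulation of the endogenous gene, so a rescued cell need not return to the state of an enhancer-intact cell.

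The genomic sequence at regions named below is given here because GATA motifs separated the classes of called regions. Each run is the plus strand of GRCm38 (mm10), read from the RefSeq assembly, and covers the 200 bases around the summit of the strongest peak, or fewer where annotated UTR was removed. Capitals mark matches to AGATAA or AGATAG or TGATAA or TGATAG on either strand. The 6 regions that follow were gained with no peak in any hi-77-/- empty library.
Kit, 114 kb upstream of the start, intergenic, chr5:75460589-75460788: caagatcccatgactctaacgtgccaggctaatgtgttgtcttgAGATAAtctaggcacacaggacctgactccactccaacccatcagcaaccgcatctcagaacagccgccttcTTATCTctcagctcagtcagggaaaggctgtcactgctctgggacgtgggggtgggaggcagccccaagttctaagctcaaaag
Cpa3, 0.09 kb upstream of the start, intergenic, chr3:20242182-20242370: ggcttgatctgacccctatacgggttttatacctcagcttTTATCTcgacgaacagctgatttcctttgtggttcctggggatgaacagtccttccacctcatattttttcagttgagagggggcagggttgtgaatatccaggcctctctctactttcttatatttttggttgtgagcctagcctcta
Il1rl1, 10.9 kb upstream of the start, intergenic, chr1:40418573-40418772: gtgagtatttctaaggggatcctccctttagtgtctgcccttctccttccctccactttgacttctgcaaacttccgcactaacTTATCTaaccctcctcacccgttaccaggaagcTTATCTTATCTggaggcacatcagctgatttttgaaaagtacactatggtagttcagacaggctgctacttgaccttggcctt
Mcpt4, 4.32 kb downstream of the start, intergenic, chr14:56057895-56058094: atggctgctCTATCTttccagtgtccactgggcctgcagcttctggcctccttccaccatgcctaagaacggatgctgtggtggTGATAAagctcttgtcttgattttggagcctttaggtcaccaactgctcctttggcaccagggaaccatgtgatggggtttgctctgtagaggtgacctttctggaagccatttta
Gata1, 3.55 kb upstream of the start, intron, chrX:7971356-7971555: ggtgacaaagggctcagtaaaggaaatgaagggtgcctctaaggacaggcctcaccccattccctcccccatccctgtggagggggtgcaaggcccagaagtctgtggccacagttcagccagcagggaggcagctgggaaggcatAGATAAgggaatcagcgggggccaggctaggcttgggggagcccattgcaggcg
Il6, 39.3 kb upstream of the start, intergenic, chr5:29973669-29973868: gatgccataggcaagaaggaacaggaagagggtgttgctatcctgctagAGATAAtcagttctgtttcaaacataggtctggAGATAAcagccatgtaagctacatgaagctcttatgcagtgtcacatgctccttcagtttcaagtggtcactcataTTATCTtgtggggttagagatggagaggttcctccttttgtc

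In 3 gained regions that already had a peak in all 4 hi-77-/- empty libraries, capitals also mark the ETS motif (AGGAAG or CGGAAG) at Aim2 and the HOX-PBX motif (TGAT directly followed by TTAT) at Myo3a and Postn. At Myo3a the GATA and HOX-PBX matches overlap.
Aim2, 0.071 kb upstream of the start, intron, chr1:173420427-173420570: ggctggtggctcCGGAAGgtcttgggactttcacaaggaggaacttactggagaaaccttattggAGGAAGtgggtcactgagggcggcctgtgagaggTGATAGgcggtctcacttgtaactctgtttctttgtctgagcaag
Myo3a, 16.2 kb downstream of the start, intron, chr2:22257122-22257321: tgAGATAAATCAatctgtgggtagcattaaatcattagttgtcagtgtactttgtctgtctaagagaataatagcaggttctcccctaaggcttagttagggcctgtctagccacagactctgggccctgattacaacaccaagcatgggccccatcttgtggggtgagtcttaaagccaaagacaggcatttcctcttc
Postn, 2.48 kb upstream of the start, intergenic, chr3:54358524-54358723: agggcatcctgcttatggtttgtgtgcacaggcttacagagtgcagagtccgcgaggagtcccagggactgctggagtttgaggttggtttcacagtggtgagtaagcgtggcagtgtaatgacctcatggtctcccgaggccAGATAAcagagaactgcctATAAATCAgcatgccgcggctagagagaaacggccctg

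In 3 lost regions, capitals mark an ETS motif at Zmiz1, a CTCF motif at Cd34, and a GATA and an ETS match at Gp1bb. The Zmiz1 region had no GATA match in the window.
Zmiz1, 81.1 kb upstream of the start, intergenic, chr14:25378019-25378218: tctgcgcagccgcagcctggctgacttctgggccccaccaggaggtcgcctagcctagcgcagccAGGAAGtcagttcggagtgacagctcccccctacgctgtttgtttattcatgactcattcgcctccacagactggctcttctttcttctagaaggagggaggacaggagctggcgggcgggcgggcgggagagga
Gp1bb, 1.31 kb upstream of the start, intron, chr16:18623609-18623808: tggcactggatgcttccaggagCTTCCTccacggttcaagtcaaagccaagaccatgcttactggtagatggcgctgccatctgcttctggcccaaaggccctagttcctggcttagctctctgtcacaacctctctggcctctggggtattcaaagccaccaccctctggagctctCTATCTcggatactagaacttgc
Cd34, 53.3 kb upstream of the start, intergenic, chr1:194885418-194885617: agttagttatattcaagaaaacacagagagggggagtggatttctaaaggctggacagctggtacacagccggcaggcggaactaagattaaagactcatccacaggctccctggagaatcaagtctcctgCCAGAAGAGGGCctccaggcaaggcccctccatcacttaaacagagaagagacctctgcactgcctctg

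The 4 hi-77+/+ empty lists held 76447 to 112267 peaks and the 4 hi-77-/- GATA2 lists 50195 to 78185, and the lists give no read totals. The background pileup of a library, derived from the steps in its fold enrichment, was 0.301 to 0.707 and 0.467 to 0.89. The weakest of the 49000 kept peaks had a -log10 q of 5.88 to 7.15 in hi-77+/+ empty and 2.87 to 4.99 in hi-77-/- GATA2, so that equal list lengths did not mean equal stringency. Gene lists of the labelled cell type and of other cells were searched for regions whose nearest protein-coding start lay within 100 kb. A region from any of the 16 libraries counted, and 16989 protein-coding genes had one. Having such a region therefore does not identify a cell type. Of 16 stem and progenitor factors, 15 had such a region, and only Hoxa9 had none. Of 10 fetal liver hepatocyte markers 6 had one, with none at Alb, Apoa2, Fgb and Serpina1a. Of 8 endothelial markers 6 had one, with none at Tek and Tie1, of 8 stromal fibroblast markers 6, with none at Dcn and Lum, and of 12 T lymphoid markers 10, with none at Cd3g and Cd8a.

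At the Gata2 locus (ENSMUSG00000015053.14, chr6:88193891-88207032), kept peaks covered 1414, 1261, 1315 and 1196 bp of the 2 kb window 76 to 78 kb upstream in the 4 hi-77+/+ empty libraries. In hi-77-/- GATA2 the window held no peak in replicates 1, 2 and 3 and 246 bp of peak in replicate 4. Peak was also listed there in hi-77-/- empty replicate 4, at 609 bp, and in 9aa-Ins replicates 3 and 4, at 607 and 394 bp, and in none of the other 5 libraries of these groups. The hi-77+/+ empty and hi-77-/- GATA2 libraries did not overlap, and the means of 1297 ± 92.2 bp and 61.5 ± 123 bp (SD, n = 4) differed with p = 0.0286 in a two-sided exact permutation test, the smallest p that 4 against 4 libraries allow. The window takes in the enhancer that hi-77-/- cells lack, so the direction was fixed by the genotype. The comparison checks the labels and is not evidence of a change in chromatin. Peaks covered 0% of the Gata2 coding exons in hi-77+/+ empty and 46.5%, 44.4%, 49.0% and 63.2% in hi-77-/- GATA2. The vector carries these exons, and the 2 gained regions over them were left out of the genes named below. Coverage was 8.19% on average in hi-77-/- empty, without a GATA2 vector.

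Gained regions made up 2.72% of all regions and lost regions 2.3%, and 23159 regions had a peak in all 8 libraries. The balance between the directions depended on the list length, since all deposited peaks gave 1206 gained and 5048 lost regions. The overlap of any pair of libraries was measured by the Jaccard index, in which shared regions are divided by all regions that at least 1 of the pair holds. The mean index was 0.683 within hi-77-/- GATA2 (0.67 to 0.705) and 0.688 within hi-77+/+ empty (0.683 to 0.694), and 0.552 between the groups (0.528 to 0.568). Every pair within a group was more alike than every pair between them. The mean within minus the mean between was 0.134, with p = 0.0286 in a one-sided exact permutation test. The mean index between hi-77-/- GATA2 and hi-77-/- empty libraries was 0.604. Pairs of 1 hi-77+/+ empty library with 1 hi-77-/- empty library had a mean of 0.562 (0.536 to 0.585). This range overlapped the 0.528 to 0.568 of hi-77+/+ empty paired with hi-77-/- GATA2. By this index rescued libraries were therefore no nearer to enhancer-intact ones than unrescued libraries were. The difference of these means was not tested.

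Each library was also scored on sets of regions chosen without it. Of the regions with a peak in the other 3 hi-77-/- GATA2 libraries and in no hi-77+/+ empty library, the left-out GATA2 library had a peak in 84.4 ± 5.66% (SD, n = 4), with 75.9% in replicate 1 and 86.7% to 87.7% in the others. A left-out hi-77+/+ empty library had a peak in 10.6 ± 3.79% of the regions that the remaining 7 libraries put in the gained class. On the lost side a left-out hi-77+/+ empty library had a peak in 79 ± 0.841% and a left-out GATA2 library in 15.9 ± 2%. Beside the gained class lay 1176 regions with a peak in 4 GATA2 libraries and 1 hi-77+/+ empty library and 1867 with 3 and none. Beside the lost class lay 1576 regions with 1 GATA2 and 4 hi-77+/+ empty libraries and 2218 with none and 3.

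Absence from the 49000 kept peaks was often not absence from the deposited list. Of 2466 gained regions, 831 (33.7%) had no peak in any full hi-77+/+ empty list, and 243 had one in all 4. Of 2086 lost regions, 1120 (53.7%) had no peak in any full GATA2 list and 2 had one in all 4. A gained region was therefore a region that ranked higher in GATA2-rescued cells, and in the remaining ones a weaker peak was listed in at least 1 enhancer-intact library. The 2 directions cannot be compared in this, because the full lists differed in length. On chromosomes 1 to 19 and X, hi-77+/+ empty lists held 76022 to 111743 peaks. The list of GATA2 replicate 1 held 49852, little more than the 49000 kept, so a lost region could seldom be in all 4 GATA2 lists.

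The hi-77-/- empty libraries, which the calls did not use, were used to divide the regions. They are a parallel group with an empty vector, not an earlier time point of the rescued cells. Of 2466 gained regions, 1000 had no peak in any hi-77-/- empty library and are called new, 649 had a peak in 1 to 3, and 817 had one in all 4 and are called persisting. Of 2086 lost regions, 1143 had no peak in any hi-77-/- empty library and are called not restored, 771 had a peak in 1 to 3, and 172 had one in all 4 and are called newly closed. These counts and their order depended on the list length, since the upper 50% of the kept peaks gave 557 new and 571 persisting regions. Of all 90549 regions, 32850 had a peak in all 4 hi-77-/- empty libraries, beside 33.1% of gained and 8.25% of lost regions. A hi-77-/- empty library had a peak in 48.75 ± 0.656% of all regions (SD, n = 4). The share was 45.95 ± 2.43% of gained regions, near that of any region, and 23.15 ± 1.66% of lost regions.

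**Figure D1:**
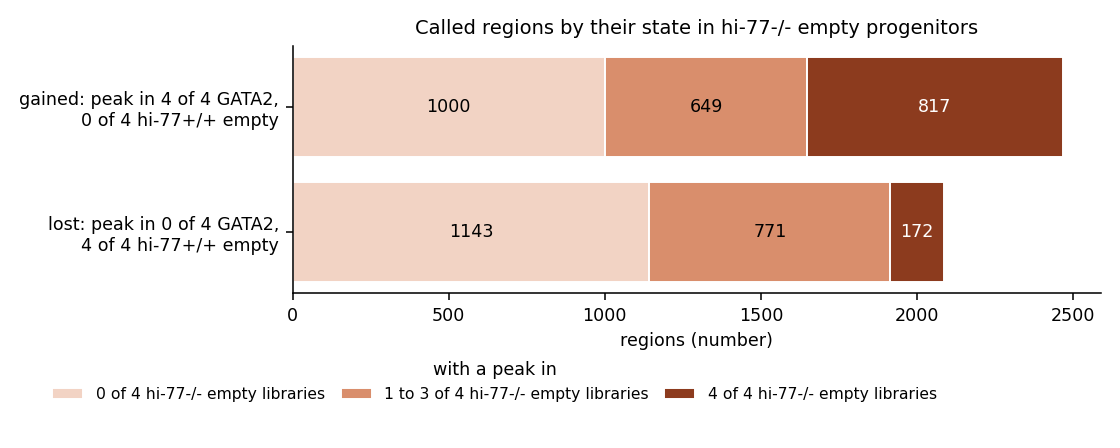
Number of regions gained or lost in hi-77-/- GATA2 against hi-77+/+ empty (x axis), divided by how many of the 4 hi-77-/- empty libraries had a peak. The largest blocks are the 1143 lost and the 1000 gained regions without a peak in hi-77-/- empty, and only 172 lost regions had a peak in all 4.

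The deletion itself, hi-77-/- empty against hi-77+/+ empty, gained 3251 regions (3.59% of all) and lost 1913 (2.11%), a comparison that shares the hi-77+/+ empty libraries. Of these 1913 lost regions, 107 (5.59%) had a peak in all 4 GATA2 libraries and 1143 (59.7%) had none. Of the 3251 gained ones, 1238 (38.1%) had no peak in any GATA2 library and 817 (25.1%) had one in all 4. Of all 90549 regions, 34.1% had a peak in no GATA2 library and 33.1% in all 4. The 38.1% was near the first share and the 59.7% above it, and the 5.59% and 25.1% were below the second. Both are rough baselines, since all regions include those seen in few libraries. Among these, 13134 had no peak in any hi-77-/- GATA2 or hi-77+/+ empty library. Among genes of the lists, the regions with a peak in hi-77+/+ empty and hi-77-/- GATA2 alone lay at Zfpm1, a cofactor of GATA factors, at Srgn, the core protein of granule proteoglycans, and at Ifngr2, a chain of the interferon-γ receptor. Of 1640 regions at list genes, 42 (2.56%) had this pattern of a peak in every hi-77-/- empty library but no GATA2 or hi-77+/+ empty library, beside 1.26% of all regions within 100 kb of a start. Stem and progenitor factors held 11 of these among 261 regions, with 3 at Lmo2 and 2 each at Runx1, Erg and Hlf. B lymphoid genes held 7 among 133, with 3 at Dntt and 2 at Rag2, enzymes of antigen receptor gene recombination. Monocyte and dendritic cell genes held 5 among 187 and cytokine receptors 4 among 181. Chemokines and their receptors held 4 among 113, innate immune sensors 3 among 103 and the mast cell and basophil list 0 among 108. Since the lists differed in size, the counts alone do not rank them.

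The hi-77-/- 9aa-Ins libraries, also unused by the calls, had a peak in 17.4 ± 3.17% (SD, n = 4) of new regions, and 722 of 1000 had none in any of them against 87 with one in all 4. At persisting regions 97 ± 0.685% had a peak, and 762 of 817 had one in all 4. At regions not restored the share was 5.35 ± 4.18%, and 946 of 1143 had none. At newly closed regions it was 83 ± 6.09%, and 109 of 172 had a peak in all 4. Over all regions the share was 51.25 ± 1.11% (SD, n = 4). The classes were chosen by peaks in hi-77-/- empty, a group of the same genotype. The order of the 9aa-Ins shares is therefore not independent of that choice.

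Motifs were searched on both strands within 200 bases around the summit, and matches may overlap. Beside the GATA and HOX-PBX letters above they were the E-box CANNTG, the ETS motif AGGAAG or CGGAAG, the RUNX motif TGTGGT, the C/EBP motif (TTGC and AA separated by 2 bases), the AP-1 motif TGANTCA and the EBF, IRF and CTCF motifs. Of the 874 new regions over 3 kb from a protein-coding start, called distal here, 80.2% had a GATA match, against 29.5% of all 66352 distal regions. An E-box followed by a GATA match after 6 to 14 bases stood in 8.24% against 2.33%, and a pair of GATA matches at most 5 bases apart in 4% against 0.607%. The CTCF motif, bound by the insulator protein CTCF, stood in 1.26% against 13.8%, and the EBF motif (TCCC and GGGA 2 bases apart) in 0%. RUNX matches were in 37.3% against 27.6%, and ETS matches in 44.2% against 44.4%.

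Persisting regions had another makeup. GATA matches were in 34.8% of the 690 distal ones, ETS matches in 59.4% and RUNX matches in 39%, and the HOX-PBX motif in 4.06% against 0.877% of all distal regions. CTCF matches were in 1.59%.

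Regions not restored carried CTCF matches in 22.7% of 876 distal regions, GATA matches in 23.5% and ETS matches in 29.6%. The 139 distal newly closed regions carried the EBF motif in 12.9% against 1.59% of all, ETS matches in 49.6% and GATA matches in 13.7%. Of the 1238 regions with a peak in all 4 hi-77-/- empty libraries and in no GATA2 or hi-77+/+ empty library, the EBF motif was in 8.01% of 1098 distal ones and GATA matches in 14.7%. Promoters, within 3 kb of a start, were 26.7% of all regions, 14.5% of gained and 20.7% of lost regions. These shares describe the letters in the windows and do not show that a factor was bound.

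**Figure D2:**
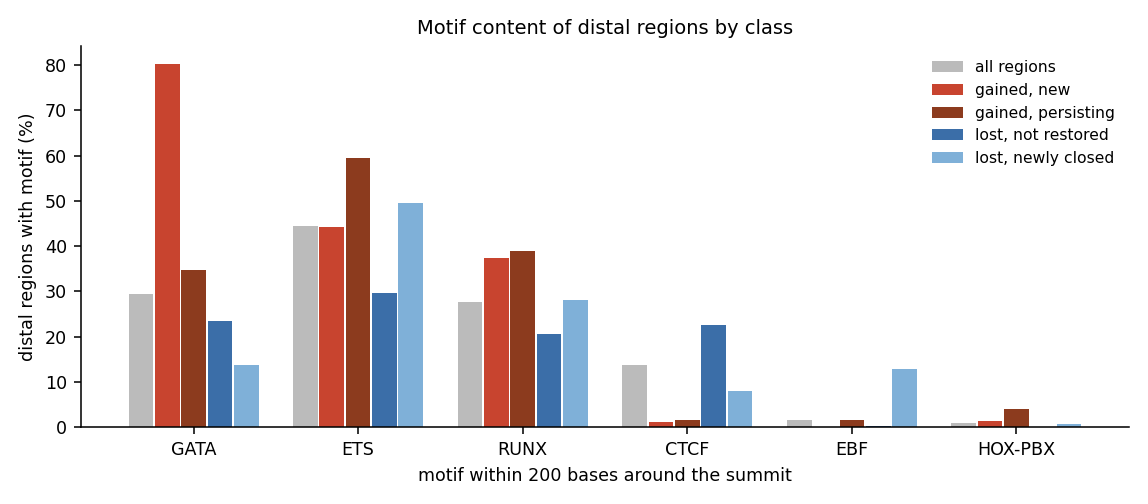
Share of distal regions (over 3 kb from a protein-coding start, y axis in percent) with each motif in the 200 bases around the summit, for all regions and for 4 classes of called regions. GATA stands at 80.2% in new regions, CTCF at 22.7% in regions not restored and EBF at 12.9% in newly closed regions.

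The same motifs were counted over all distal kept peaks of each library, whether or not the region was called. A GATA match stood in 33.5%, 33.5%, 34.2% and 34.2% of distal peaks in the 4 GATA2 libraries and in 25.9%, 25.4%, 25.1% and 24.9% in the 4 hi-77+/+ empty libraries. The groups did not overlap, with a difference of 8.54 percentage points (p = 0.0286 in an exact permutation test, adjusted p = 0.04 over 14 measures). The hi-77-/- empty libraries were at 24.5 ± 0.143% and the 9aa-Ins libraries at 24.7 ± 0.397%, so that the GATA2 libraries stood above all 3 other groups. The E-box and GATA composite rose with it, from 1.7 ± 0.0656% to 2.76 ± 0.0956%, as did the pair of GATA matches, from 0.37 ± 0.0437% to 0.786 ± 0.044%, both with an adjusted p of 0.04 in exact permutation tests.

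For the CTCF, HOX-PBX, RUNX and ETS motifs the GATA2 libraries stood away from hi-77+/+ empty in the direction of hi-77-/- empty. CTCF matches were in 13.3 ± 0.752% of distal peaks in hi-77-/- GATA2, 18.8 ± 0.846% in hi-77+/+ empty and 12.8 ± 0.724% in hi-77-/- empty. HOX-PBX matches were in 1.02 ± 0.0642%, 0.588 ± 0.0549% and 1.02 ± 0.0755%, RUNX matches in 28.9 ± 0.456%, 25.1 ± 0.758% and 29 ± 0.532%, and ETS matches in 46.6 ± 0.323%, 42 ± 1.12% and 50.6 ± 0.641%. Each of these 4 differences between hi-77-/- GATA2 and hi-77+/+ empty had an adjusted p of 0.04 in the exact permutation test, and so had those of the C/EBP, AP-1 and E-box motifs, which were higher by 2.03, 1.02 and 0.881 percentage points. For AP-1 hi-77-/- empty, at 12.3 ± 0.193%, lay on the other side of hi-77+/+ empty, at 12.5 ± 0.309%. In all, 10 of 14 measures passed, and the EBF and IRF motifs, GC content and the promoter share did not. With promoter peaks included 0 of 14 passed, 13 kept their direction and the smallest adjusted p was 0.05 in the exact permutation test. The EBF motif was in 1.16 ± 0.0485% in hi-77-/- GATA2 and 1.32 ± 0.149% in hi-77+/+ empty (adjusted p = 0.109, exact permutation test), and in 2.43 ± 0.101% in hi-77-/- empty.

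**Figure D3:**
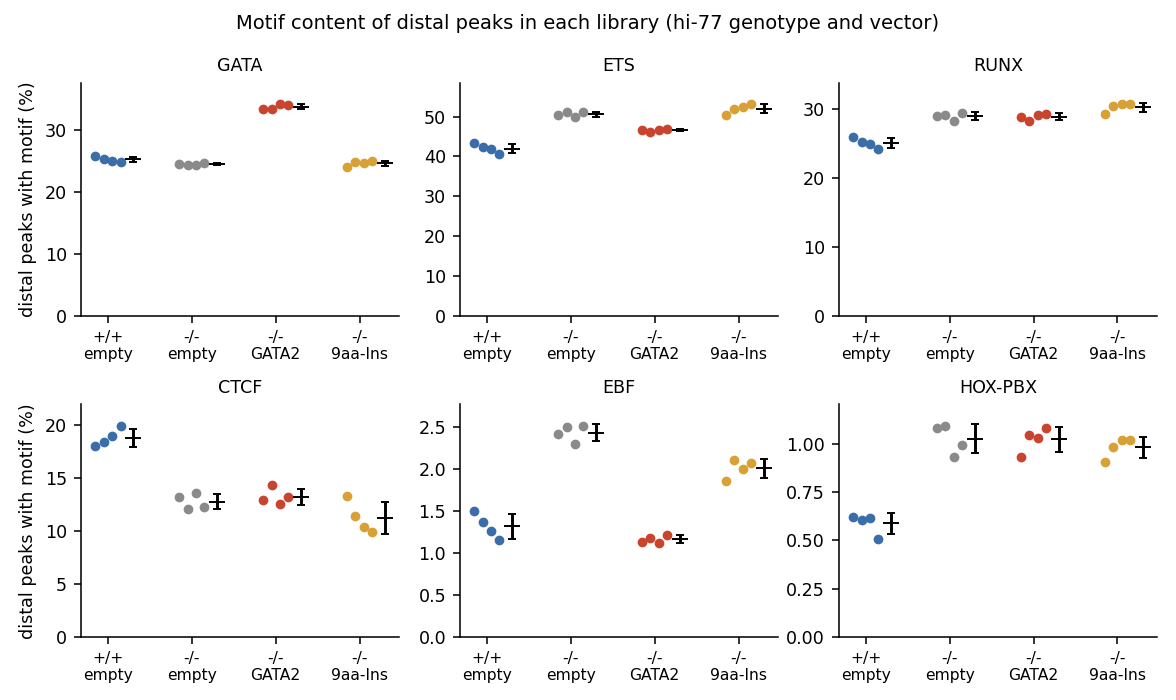
Share of distal kept peaks with each motif (y axis in percent) in every library of the 4 groups, with points for libraries and the mean ± SD beside them. The 4 GATA2 libraries lie alone near 34% for GATA and near the other hi-77-/- groups for CTCF, RUNX and HOX-PBX, and for EBF they lie beside hi-77+/+ empty.

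New regions of highest rank lay near Postn, 4932438H23Rik, Il6, Kit, Emx2, Mia3, Mtss1 and Sacm1l, and all 8 windows held a GATA match. Distances are given to the nearest protein-coding start, and a gene's name gives position only. At every named region the rank order of hi-77-/- GATA2 against hi-77+/+ empty is set by the call. Kit encodes the receptor for stem cell factor, which mast cells and progenitors need. The region 114 kb upstream of Kit (chr5:75460322-75460876, intergenic) had ranks 9690, 9711, 9265 and 7126 in the GATA2 libraries and no kept peak in the other 12 libraries. In the full lists the hi-77+/+ empty libraries had a peak there at ranks 62871 to 81744, and 2 hi-77-/- empty libraries had one at 62124 and 63505. Its fold enrichment over the constant background of each library, a ratio that is not an amount comparable between libraries, was 13.2 to 23.9 in hi-77-/- GATA2 and 3.68 to 4.69 in hi-77+/+ empty. Its 2 GATA matches are in the sequence above.

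The region 39.3 kb upstream of Il6 (chr5:29973483-29973952), which encodes the cytokine interleukin-6, had ranks 4862, 9702, 9256 and 8904 in hi-77-/- GATA2. Peaks were listed there at ranks 70838 and 78975 in 2 hi-77+/+ empty libraries and at 49627 and 50065 in 2 hi-77-/- empty libraries, and at 34906 to 52813 in all 4 9aa-Ins libraries. The best ranked new region, 128 kb downstream of the Postn start (chr3:54504822-54505440), was in no full hi-77+/+ empty list.

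Mast cell and basophil genes had the highest gained share of the cell type lists. Of 108 regions at 17 genes with any, 10 were gained and 0 lost, or 9.26% gained beside 2.53% of all 81473 regions within 100 kb of a start. The share was 8% (4 of 50) at stromal fibroblast genes, 7.32% (3 of 41) at eosinophil genes and 6.9% (2 of 29) at endothelial genes. Of the 10 mast cell and basophil regions, 7 were new. Among them were regions 0.09 kb upstream of Cpa3, the mast cell carboxypeptidase, 0.108 kb upstream of Tpsab1, a tryptase, 4.32 kb downstream of the start of Mcpt4, a chymase, 1.72 kb upstream of Ms4a2, the β chain of the high-affinity IgE receptor, 10.9 kb upstream of Il1rl1, the interleukin-33 receptor, and 9.58 kb upstream of Srgn. The 3 that were not new lay at Mcpt8, Ms4a3 and Srgn. The Kit region at 114 kb is beyond the distance set for the list.

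The Cpa3 region (chr3:20242012-20242404) ranked 23668, 28048, 26244 and 22365 in hi-77-/- GATA2, and a single hi-77+/+ empty list had it, at 70069. The Mcpt4 region (chr14:56057815-56058190) ranked 36564, 17740, 22913 and 18937, with no peak in any of the other 12 full lists. The Il1rl1 region (chr1:40418590-40418887) ranked 16087, 39722, 25843 and 46110, also with none in the other 12. These were peaks of middle to low rank, and the Ms4a2 region was lower still, at 39430 to 46774.

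Per library, 61, 70, 69 and 69 kept peaks lay at the mast cell and basophil list in hi-77-/- GATA2 and 39, 46, 35 and 43 in hi-77+/+ empty, without overlap (means 67.3 ± 4.19 and 40.8 ± 4.79, SD, n = 4). The difference of 26.5 peaks had p = 0.0286 in the exact permutation test and an adjusted p of 0.0603 over 19 lists, so it did not pass. In the same exact permutation tests 0 of 19 lists passed after adjustment and 9 had an unadjusted p of 0.0286, the other 8 being cytokine receptors, chemokines and their receptors, stem and progenitor factors, monocyte and dendritic cell, B lymphoid, neutrophil granule, fetal liver hepatocyte and the genes that the study names as activated by GATA2. All 9 were higher in hi-77-/- GATA2.

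The hi-77-/- empty libraries had 45.3 ± 1.89 peaks at the mast cell and basophil list, near hi-77+/+ empty. At other lists they were nearer to hi-77-/- GATA2. At cytokine receptors the means were 99.3 ± 7.68 in hi-77-/- GATA2, 71.5 ± 1.91 in hi-77+/+ empty and 94.5 ± 3.32 in hi-77-/- empty. At chemokines and their receptors they were 65 ± 4.97, 37.5 ± 1.73 and 60.8 ± 2.75. At innate immune sensors they were 54.5 ± 4.65, 51 ± 5.35 and 69.8 ± 1.71, the GATA2 mean lying beside that of enhancer-intact cells. The fetal liver hepatocyte list, made of markers of other liver cells, had 18.5 ± 2.38 peaks in hi-77-/- GATA2 and 12.3 ± 2.5 in hi-77+/+ empty. Of its 10 genes, 6 had any region. Its part in the other results was not tested.

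The 6 genes that the study names as activated by GATA2 had 31 kept peaks in each of the 4 GATA2 libraries and 13 to 19 in hi-77+/+ empty, and 6 of their 52 regions (11.5%) were gained and 1 lost. The lost region was at Far2, and Far2 and Hdc had no gained region. The study named these genes in its work on the same cells, so the list is not independent evidence of its direction. The 7 genes named as repressed had 25 ± 2.71 and 24.5 ± 1 peaks, against 33 ± 0.816 in hi-77-/- empty.

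Gata1 encodes the erythroid and mast cell GATA factor, and both of its gained regions were new. The region 3.55 kb upstream of its start (chrX:7971292-7971591, in an intron of a longer transcript) ranked 32864, 39558, 21330 and 31450 in hi-77-/- GATA2 and was in no full hi-77+/+ empty list. The region 0.066 kb upstream (chrX:7967782-7968174) ranked 19129, 39557, 25771 and 23878, and all 4 full hi-77+/+ empty lists had it, at 69185 to 85587. The call itself sets this order, and full lists differed in length between the groups.

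Of 181 regions at cytokine receptors 9 were gained (4.97%, beside 2.53% of all regions within 100 kb of a start) and 1 lost. Among receptors for interleukin-3, interleukin-5 and GM-CSF, none of the 8 regions at Il3ra was gained, and new regions lay at Csf2rb, the shared β chain (2 regions, 7.24 and 3.78 kb upstream), Csf2rb2, its interleukin-3 counterpart (7.37 kb upstream), Csf2ra (19.7 kb downstream) and Il5ra (12.4 kb downstream, in an intron). Csf2rb and Csf2rb2 are close copies of each other in neighbouring loci, and reads that the aligner could not place uniquely were dropped by the authors. The Csf2rb region at 7.24 kb ranked 32251, 20818, 25385 and 18989 in hi-77-/- GATA2, and 1 hi-77+/+ empty list had it, at 102443. Other new regions at list genes lay at the progenitor factors Meis1, Myb and Spi1, the chemokine receptor Ccr9 (3 regions), the platelet genes Pf4 and Thbs1, the neutrophil factor Gfi1, the T cell factor Gata3 and the GATA cofactor Zfpm1. In all, 32 new regions lay at 28 list genes, 21 of them with a GATA match, and 24 had no peak in any 9aa-Ins library. Over the whole class of new regions, 80.2% of distal ones had a GATA match, and 722 of 1000 had no peak in any 9aa-Ins library.

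Persisting regions at list genes differed from new ones much as the whole classes did. The 25 regions lay at 21 genes, 9 had a GATA match, 23 had a peak in all 4 9aa-Ins libraries and none lacked one in all 4. Over the whole class, 34.8% of distal regions had a GATA match, and 762 of 817 regions had a peak in all 4 9aa-Ins libraries. These counts are therefore not particular to list genes. At innate immune sensors 3 of 103 regions were gained (2.91%), near the 2.53% of all regions within 100 kb of a start. Aim2, a cytosolic DNA sensor, had a region 0.071 kb upstream of its start (chr1:173420272-173420752) with ranks 7582, 3252, 8601 and 5849 in hi-77-/- GATA2 and 4801, 4621, 2333 and 5286 in hi-77-/- empty. A single full hi-77+/+ empty list had it, at 62020. The region at the start of Nlrp3, an inflammasome sensor, ranked 16525 to 35561 in hi-77-/- GATA2 and 18540 to 33593 in hi-77-/- empty, and 3 full hi-77+/+ empty lists had it at 57174 to 71977. At Nlrp3 the ranks in hi-77-/- GATA2 and hi-77-/- empty overlapped, and the order against hi-77+/+ empty is set by the call.

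At Tifab, an inhibitor of innate immune signaling, the persisting region 15.8 kb downstream of the start ranked 12639, 9904, 13941 and 6581 in hi-77-/- empty and 48714, 26889, 25195 and 25488 in hi-77-/- GATA2. All 4 full hi-77+/+ empty lists had it, at 50773 to 79218. The region 0.063 kb upstream of Igll1, a part of the surrogate light chain of B cell precursors, ranked 13563, 9409, 8316 and 9211 in hi-77-/- empty and 25559, 30236, 48477 and 28086 in hi-77-/- GATA2, with 1 hi-77+/+ empty list at 82739. At both regions the ranks of hi-77-/- GATA2 did not overlap those of hi-77-/- empty, and the order against hi-77+/+ empty is set by the call. The fold enrichment at Tifab was 4.23 to 9.55 in hi-77-/- GATA2 and 4.42 to 6.15 in hi-77+/+ empty, and these overlapped. Other persisting regions lay at the interleukin-1 receptors Il1r1 and Il1r2, Cxcr4, Cx3cr1, Runx1, Erg (2 regions), Tfrc and Postn (3 regions).

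The best ranked persisting regions lay at Cstf2t, Myo3a, Tmprss2, Wfs1, Zcchc13, Epm2a, Aim2 and Trim52. The Myo3a region (chr2:22256922-22257455, intron) ranked 3094, 3837, 6364 and 3932 in hi-77-/- GATA2 and 8688, 8932, 9742 and 10811 in hi-77-/- empty, and its GATA and HOX-PBX matches are printed above. The Epm2a region was of lower rank in hi-77-/- empty, at 33331, 34494, 39610 and 33627, and ranked 9181, 4686, 6547 and 6835 in hi-77-/- GATA2.

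By number, Pls3 had the most gained regions, 12 of its 18, all persisting. They lay within 29.7 kb of the X chromosome (chrX:75729639-75759381), 67.7 to 96.9 kb from the Pls3 start. A median of 91% of the 20-base words in each (58.4% in the lowest) also occurred in another of the 12, against a median of 0% among the first 200 other persisting regions in genome order. The 12 regions thus share sequence with each other, and a peak at any single one of them is uncertain. At St3gal1 6 of 28 regions were gained, at Nedd4l 6 of 19, at Mgat5 5 of 20 and at Fyb 5 of 24. The share was 2.53% of all regions within 100 kb of a start. St3gal1, a sialyltransferase, had 3 new regions, and none of its 6 persisted from all 4 hi-77-/- empty libraries.

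**Figure D4:**
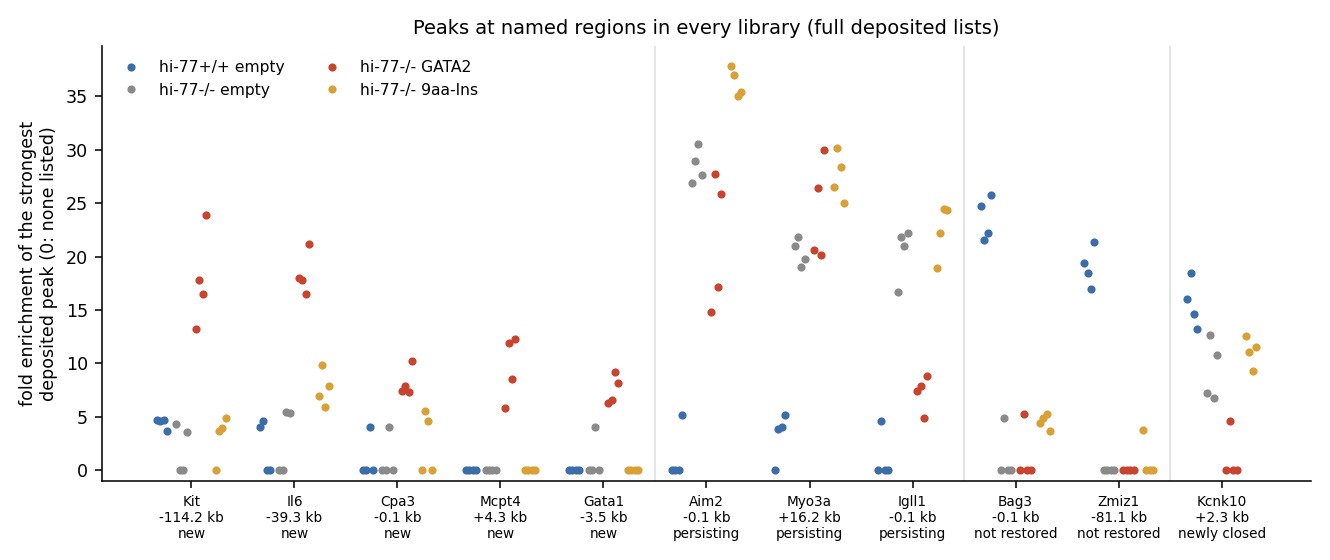
Fold enrichment over each library's own background (y axis) of the strongest deposited peak at 11 named regions, with a point for each of 16 libraries and 0 where no peak was listed. At Kit and Il6 the GATA2 points stand at 13.2 or more and the hi-77+/+ empty points at 4.69 or less. At Aim2, Myo3a and Igll1 all hi-77-/- groups have peaks, and at Bag3 and Zmiz1 the hi-77+/+ empty points stand alone above 16. The call chose these regions by presence in hi-77-/- GATA2 and hi-77+/+ empty, so the separation of these groups is not independent evidence. Fold is not an amount comparable between libraries.

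Regions not restored were led by Bag3, Snapc2, Zmiz1, Mboat4, Rbm20, Cers4, Fam129a and Pdxk, of which Snapc2, Mboat4 and Cers4 are on chromosome 8. The region 0.127 kb upstream of Bag3 (chr7:128523359-128524512), a co-chaperone gene, ranked 4696, 5799, 4535 and 3535 in hi-77+/+ empty and had no kept peak in the other 12 libraries. In the full lists 1 hi-77-/- GATA2 library had it at 50115 and 1 hi-77-/- empty library at 57401, and all 4 9aa-Ins libraries had it at 61601 to 88375. The region 81.1 kb upstream of Zmiz1 (chr14:25377711-25378681), a transcriptional coregulator, ranked 8635, 8547, 9141 and 6410 in hi-77+/+ empty, and of the other 12 full lists only a 9aa-Ins list had it, at 103112. The region 17 kb upstream of Pdxk ranked 16307, 9156, 11204 and 8869 and was in none of the other 12.

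At hematopoietic genes of the lists, regions not restored were of lower rank. Of 261 regions at stem and progenitor factors 10 were gained (3.83%), 2 of them over the Gata2 coding exons, and 3 lost (1.15%, beside 2.35% of all regions within 100 kb of a start). All 3 lost regions were at Cd34, a surface marker of progenitors, where 0 of 20 regions were gained. The region 14.3 kb downstream of its start (chr1:194953073-194953255, intron) ranked 45654, 25915, 31146 and 33249 in hi-77+/+ empty and was in no full list of hi-77-/- empty or GATA2. The same held for a region 0.633 kb downstream of the start of Tal1, the E-box partner of GATA factors, with ranks 26197, 46267, 45763 and 33944. Of 98 regions at erythroid genes, 5 were gained (5.1%) and 5 lost (5.1%), the gained ones including Gata1 (2), Zfpm1 and Tfrc and the lost ones including Tal1, Ank1, Add2 and Zfpm1, of which Ank1 and Zfpm1 are on chromosome 8.

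Newly closed regions were few, and they were led by Mtnr1a, Atp7b, Kcnk10, Mkln1, Bcl2l11, Alkbh3, Fbxl17 and Kat14. The name rests on kept peaks, and 53 of the 172 had no peak in any full GATA2 list. At all of these leading regions but Bcl2l11, peaks already ranked weaker in every hi-77-/- empty library than in any hi-77+/+ empty one. They were picked by rank in hi-77+/+ empty. Over the class the middle rank was 29855 in hi-77+/+ empty and 29886 in hi-77-/- empty. The Kcnk10 region (chr12:98572298-98572749, intron, 2.29 kb downstream of the start), at a potassium channel gene, ranked 12310, 8509, 12159 and 16909 in hi-77+/+ empty and 37940, 19859, 40347 and 23590 in hi-77-/- empty, and 1 GATA2 list had it, at 63336. At list genes there were 2, at Tlr2, a receptor for bacterial lipopeptides, and at Gp1bb, a platelet glycoprotein. The Tlr2 region, 0.121 kb downstream of the start, ranked 26050 to 45762 in hi-77+/+ empty and 25926 to 46033 in hi-77-/- empty, and 2 full GATA2 lists had it at 55900 and 57123.

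Chromosome 8 carried 405 of the 2086 lost regions (19.4%) and 52 of the 2466 gained (2.11%). Of its 5942 regions 6.82% were lost, against 1.99% of the 84607 regions elsewhere. Its share of kept peaks was 5.42 ± 0.392% in hi-77-/- GATA2 and 7.84 ± 0.147% in hi-77+/+ empty (SD, n = 4), without overlap, with p = 0.0286 in the exact permutation test and an adjusted p of 0.0571 over 20 chromosomes. It was 5.45 ± 0.274% in hi-77-/- empty and 5.41 ± 0.198% in 9aa-Ins, so the share was lower in all 3 groups of that genotype. Its part in the lost regions was not tested. In these tests 0 of 20 chromosomes passed after adjustment and 10 had an unadjusted p of 0.0286. Outside chromosome 8, 2414 regions were gained and 1681 lost, and the motif shares there were alike, with GATA matches in 80% of new regions and CTCF matches in 22.8% of regions not restored. The genes with the most lost regions were Cmip (7 of its 57 regions) and Gse1 (5 of 65). Slc38a8 (4 of 6), Cntnap2 (4 of 8) and Nfatc2 (4 of 10) followed, and other genes also had 4. Cmip, Gse1 and Slc38a8 are on chromosome 8, where 6.82% of all regions were lost. Such counts also depend on how many regions a gene has.

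**Figure D5:**
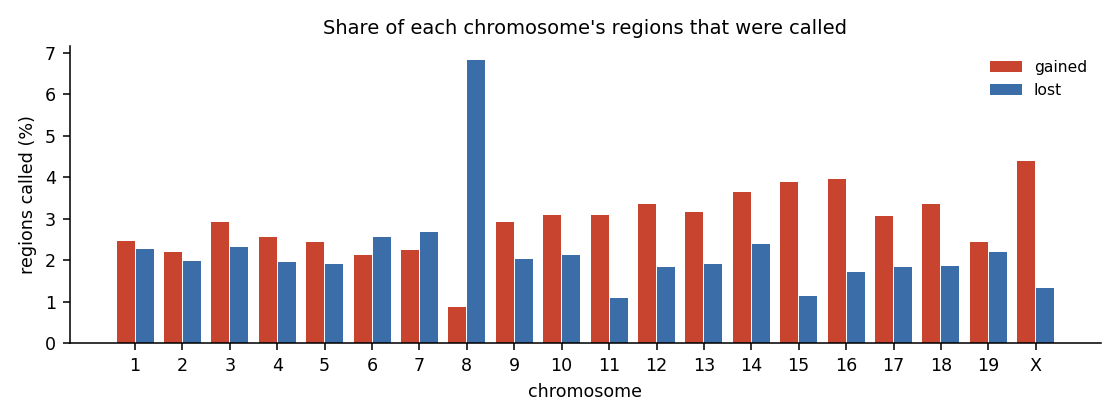
Share of each chromosome's regions (y axis in percent) that were gained or lost in hi-77-/- GATA2 against hi-77+/+ empty. Chromosome 8 stands at 6.82% lost, and no other chromosome is above 2.68% lost. The highest gained share is 4.4%, on chromosome X.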

How the data were processed

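ATAC-Seq libraries of 16 samples, 4 in each of 4 groups, were used as the deposited peak lists. The steps are those of the study's methods, and the Bowtie2 and Picard versions come from the sample records. The authors trimmed reads with Trim Galore (0.4.1), aligned them to mm10 with Bowtie2 (2.2.5) and removed duplicates with Picard (2.26.0). They kept uniquely mapped reads, shifted them for the transposase and called peaks per library with MACS2. The lists deposited by the authors hold for each peak a score, a fold enrichment (a ratio to the background of the library), a -log10 p-value, a -log10 q-value and a summit offset. They hold no read counts or totals. Fold values fell in whole steps that give each library a background pileup, a relative measure of depth, but only called peaks are listed, so no count test was made. The comparisons that the study made on read counts were not used.

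Peaks were ranked by -log10 p, and the 49000 best on chromosomes 1 to 19 and X were merged and scored as described above. Single values per library were compared by exact permutation tests of 4 against 4, two-sided except for the Jaccard index, with Benjamini-Hochberg adjustment within 14 motif and composition measures, 19 gene lists and 20 chromosomes. Genes were the nearest protein-coding start within 100 kb (GENCODE), and sequence came from RefSeq GRCm38. The genes named were those of the 8 best ranked regions of each class, every list gene at a called region, the 5 genes with the most called regions in each direction, and Gata2. The members and lists were chosen with earlier results of these data known.

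Same-numbered libraries were checked for pairing by the correlation of their deviations from the group means over 10136 regions. It was -0.0074 to 0.018, so the numbers were not taken as pairs. The scripts were tested on simulated data. Alternatives changed the number of peaks kept, their ranking, width and q limit, the overlap, the merge, the definition of absence, the call rule, the motif window, the distances, the chromosomes and the libraries. Tools were Python 3.11.15, numpy 2.4.6, pandas 2.3.3, scipy 1.17.1 and pysam 0.24.0. Some regions and genes that the naming rule selected are not reported here.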

Additional observations from a re-analysis of the deposited data

Results flagged for a closer look

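Of 76 sets of 4 library values screened, 8 had a library standing apart from the other 3 by Dixon's criterion, where chance alone gives about 1 in 20. In hi-77-/- GATA2 replicate 1, 61 peaks lay at the mast cell and basophil list against 69 to 70 in the others, and a peak was present in 75.9% of the gained regions chosen without it against 86.7% to 87.7%. Replicate 1 also had the shortest deposited list, with 50195 peaks. In hi-77-/- GATA2 replicate 4, peaks covered 246 bp of the -77 window against 0 in the others. In hi-77-/- GATA2 replicate 2, 22 peaks lay at the stromal fibroblast list against 16 to 17. At the genes named by the study as repressed by GATA2, replicate 3 of hi-77-/- GATA2 had 29 peaks against 23 to 24, and replicate 2 of hi-77+/+ empty had 26 against 24. In hi-77+/+ empty, the HOX-PBX motif was in 0.506% of distal peaks of replicate 4 against 0.606% to 0.623%, and 77 peaks lay at the cell cycle list in replicate 3 against 82 to 83.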

How the results depend on the processing

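Counts of called regions depended strongly on the processing. With all deposited peaks there were 1206 gained and 5048 lost regions (557 new, 357 persisting, 2716 not restored, 420 newly closed). With the upper 50% of the kept peaks there were 1504 and 1258 (557 new, 571 persisting, 96 newly closed), and with peaks of -log10 q of at least 5, 1375 and 3427 (534 new, 486 persisting, 388 newly closed). Where peaks had to cover 50% of a region there were 1278 and 3549 (226 persisting, 1886 not restored). Where absence meant absence from the full lists there were 831 and 1120 (467 new, 202 persisting, 53 newly closed). At 3 of 4 against at most 1 of 4 there were 6364 and 7100 (3108 new, 2667 persisting, 4815 not restored, 1352 newly closed). Leaving out 1 library gave 2620 to 3249 gained, 2398 to 2679 lost, 1029 to 1366 new, 864 to 1027 persisting, 1222 to 1547 not restored and 196 to 258 newly closed regions, since a rule on 7 libraries is easier to meet. Of 125 named regions, 45 were still called with all deposited peaks, 37 with the upper 50% of peaks, 82 with the q limit, 105 below 1 kb width, 71 with 50% cover, 45 with absence from the full lists, and 125 when ranked by fold enrichment or merged over 8 libraries.

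Differences in motif shares kept their direction for GATA, ETS and CTCF under every alternative run. With the replicate block they were 8.54, 4.61 and -5.57 percentage points with an adjusted p of 0.159 in the exact sign-flip test, which 4 pairs do not allow to pass. The replicate block left the 2466 gained and 2086 lost regions as they were by construction. With promoters included they were 5.94, 3.40 and -4.01 (adjusted p = 0.05, exact permutation test), and 0 of 14 measures passed. EBF passed with all deposited peaks (-0.133), with a 500-base window (-0.251) and without hi-77+/+ empty replicate 4 (-0.214), in a range of -0.214 to -0.0974 when leaving out 1 library. Chromosome 8 passed with all deposited peaks (-2.34). Differences that changed sign passed in none of these cases. They were GC content with all deposited peaks (0.0592) and with promoters included (0.0447), cell cycle with all deposited peaks (-4.81), with the upper 50% (-2.0) and without hi-77-/- GATA2 replicate 1 (-2.33), ubiquitous genes with all deposited peaks (0.930) and without GATA2 replicate 2 (0.0833), the genes named as repressed with all deposited peaks (-4.0) and without GATA2 replicate 3 (-0.833), erythroid with the upper 50% (1.0) and without chromosomes 8 and 19 (0.904), innate immune with the upper 50% (-3.0), hepatocyte with the upper 50% (-1.5) and endothelial without GATA2 replicate 4 (-0.167). Leaving out 1 library gave -2.33 to 5.33 for cell cycle, -5.92 to 0.0833 for ubiquitous genes, -0.833 to 1.17 for the genes named as repressed and -0.167 to 1.17 for endothelial. The causes were not tested. How far read depth limits the absent peaks was not tested.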
